A study of Mus musculus with 6 samples.

Results

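The 10 genes described here lie downstream of ERK signalling and feed back on it or carry its output: the Sprouty genes Spry1, Spry2 and Spry4, the dual-specificity phosphatase genes Dusp4, Dusp5 and Dusp6, the ETS factor genes Etv1, Etv4 and Etv5, and Phlda1. They were taken by name from the 52609 annotated genes in the files, with earlier results of these data known, so the share of them that changed is a description. All 10 passed the filter on low counts, with 50 to 1972 estimated reads per library. The data are RNA-seq of polyadenylated RNA from mouse epiblast stem cells, primed pluripotent cells derived from the epiblast and kept on inactivated embryonic fibroblasts. One group of 3 libraries had Activin A at 20 ng/mL and the other group of 3 had none. Per the labels, both groups had recombinant human FGF2 at 10 ng/mL, the Wnt secretion inhibitor IWP2 at 5 µM and SB431542 at 2 µM, which inhibits the type I receptors shared by Activin and Nodal and that of TGF-beta. FGF2, the ligand that feeds the ERK pathway, was therefore the same in both, and Activin A was tested in the presence of its own receptor inhibitor.

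Depth was 9946521 to 16350923 estimated reads per library in the group with Activin A and 13567995 to 14992042 in the other. The 6 Activin and Nodal target genes on the list used to check the labels were all lower without Activin A. Lefty1, a Nodal target and antagonist, was at 145 to 171 CPM (read counts scaled to library size, TMM-normalised) with Activin A and at 7.63 to 9.28 CPM without. Replicate 1 of the Activin-free group is contradictory in its labels: one field lists Activin A among the factors, whereas the title says it was absent, and Lefty1 was at 9.28 CPM there. The treatment protocol, one text for all samples, also lists Activin A, and the groups were taken from the titles. Replicate 3 of the Activin A group was the shallowest and stood apart from the others on the second principal component, which held 14.7% of the variance. Of 10 epiblast markers all were tested, and without Activin A 1 rose and 8 fell, with a summed level of 1377 to 1440 CPM with Activin A and 691 to 711 CPM without. Of 20 fibroblast markers 19 were tested, and without Activin A 3 rose and 9 fell, with a summed level of 897 to 977 CPM with it and 1050 to 1069 CPM without. The fibroblast sum thus rose although more of these markers fell than rose. The shares called as changed were 90.0% of epiblast and 63.2% of fibroblast markers tested, with 29.2% of all genes tested. Fibroblasts also express ERK feedback genes, and the part of the feeder cells in the results was not tested. The design text of the series speaks of different lines, so a difference in line between the groups cannot be told apart from Activin A. Nothing in the labels ties the replicates to separate cultures. All p-values here therefore rest on the spread among 6 samples, and that spread may be technical.

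FGF receptors signal through RAS and RAF to the kinases MEK and ERK. Active ERK raises the transcription of its own brakes: Sprouty proteins dampen signalling between the receptor and RAF, and dual-specificity phosphatases remove the activating phosphates from ERK itself. Etv1, Etv4 and Etv5 encode the PEA3 group of ETS transcription factors, which carry FGF signals to target genes. Phlda1 encodes a pleckstrin homology domain protein whose transcript rises with ERK activity in many cells. Transcripts of these genes are widely read as a measure of ERK output, and in the epiblast FGF and ERK act beside Activin and Nodal.

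Without Activin A the ERK feedback genes did not move as a unit. The phosphatase genes Dusp4, Dusp5 and Dusp6, the Sprouty genes Spry1 and Spry2, and Phlda1 rose, while Etv1, Etv4 and Etv5 fell and Spry4 did not pass the test. That is 6 higher, 3 lower and 1 not called by edgeR's quasi-likelihood test at an adjusted p under 0.05, over 15448 genes tested. Of all genes tested 29.2% were called, 14.0% as higher and 15.2% as lower without Activin A. The 3 libraries of one group lay wholly above or below the 3 of the other in CPM for all 10 members, Spry4 included, against 42.9% of all genes tested (21.3% higher and 21.6% lower). The median log2 fold change, given throughout as without minus with Activin A, was 0.24 for the members and 0.00 for all genes tested. In bulk RNA, fewer cells of a type and less RNA per cell cannot be told apart. Leaving out both doubted libraries, replicate 3 of the Activin A group and replicate 1 of the Activin-free group, left 5 members higher, with Spry2 no longer called, and 3 lower.

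**Figure D1:**
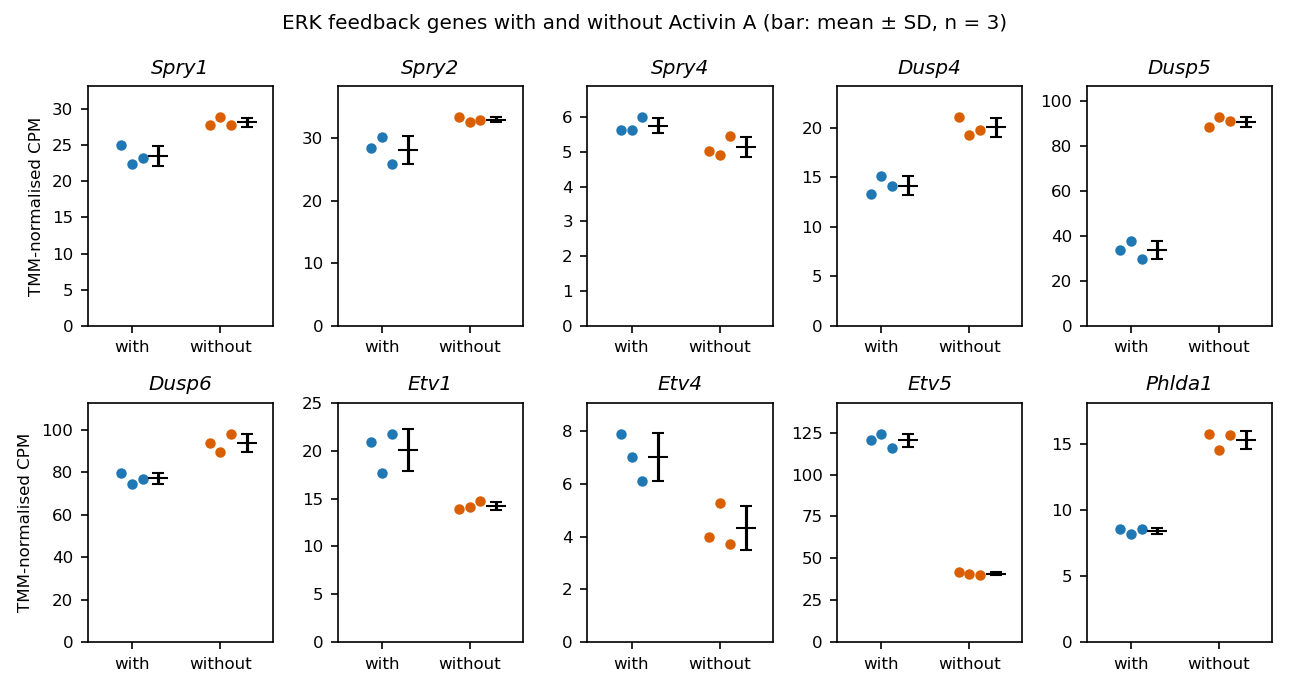
TMM-normalised CPM of the 10 genes in each library, with Activin A (blue) and without (orange). Points are libraries, and the black bars give the mean ± SD of 3 libraries. Dusp5 lies at 29.8 to 37.5 CPM with Activin A and at 88.5 to 92.8 CPM without, and Etv5 at 116 to 124 and 40.4 to 42.02 CPM.

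The phosphatase genes all rose, by unequal amounts. Dusp5, which encodes a nuclear ERK phosphatase (ENSMUSG00000034765.6, chromosome 19 of GRCm38, 53529109 to 53542431), had 33.9, 37.5 and 29.8 CPM in the libraries with Activin A and 88.5, 92.8 and 90.9 CPM in those without. Each library without Activin A was far above each library with it. The mean rose 2.67-fold without Activin A, from 33.8 ± 3.86 CPM to 90.7 ± 2.14 CPM (SD, n = 3 each), with a log2 fold change of 1.42 (SE 0.07, edgeR adjusted p = 2.06e-09). Dusp5 ranked 103 of the 2155 genes called higher by fold, and 97.7% of all genes tested had a smaller change in either direction. Its reads numbered 299 to 1377 per library.

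Dusp5 changed most among the members that rose, so the stretch before its start is shown, from the RefSeq table of promoters on GRCm38.p6. The stretch lies at chr19:53528895-53529108 on the + strand and ends where the annotated first exon begins, 36 bases before the RefSeq start. Capitals mark a pair of CArG boxes, the sequence that serum response factor binds, and after them a CRE core word (TGACG, here on the other strand).
Dusp5: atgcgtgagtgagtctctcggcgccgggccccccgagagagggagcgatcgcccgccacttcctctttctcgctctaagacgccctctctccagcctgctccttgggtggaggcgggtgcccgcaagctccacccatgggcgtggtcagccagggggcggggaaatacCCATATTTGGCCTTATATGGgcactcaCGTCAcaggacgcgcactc
The CArG boxes follow each other directly, at bases -82 to -73 and -72 to -63 counted from the RefSeq start, and the CRE core word lies at -55 to -51. CArG boxes were looked for after the Dusp5 sequence had been read. On both strands of the 250 bases before the start, 1.47% of 32851 promoters held a CArG box and 17.8% held TGACG. Among the 8 windows of the 6 members searched, Spry4 not among them, Dusp5 was the one with a CArG box. The ETS word CGGAA was in 2 of the 8 windows, those of Dusp5 (at -10 to -6, past the stretch shown) and Dusp6, against 25.2% of all promoters. The SMAD word CAGAC, found in 42.2% of all promoters, was in 0 of the 8. Etv1 and Etv5 gave more windows than the other members. Of the 250 bases, 241 of an Etv1 window and 149 of an Etv5 window lay past an annotated exon start. So few windows cannot show a lack of the word among the members. The words are matches of letters, and binding was not measured.

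Dusp4, another nuclear MAP kinase phosphatase (ENSMUSG00000031530.6, chromosome 8, 34807297 to 34819894), had 13.3, 15.1 and 14.1 CPM with Activin A and 21.05, 19.3 and 19.7 CPM without. The lowest library without Activin A was above the highest with it. The rise was 1.42-fold (edgeR adjusted p = 0.000481), with means of 14.2 ± 0.946 CPM in the presence and 20.02 ± 0.921 CPM in the absence of Activin A.

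Dusp6, the cytoplasmic ERK phosphatase (ENSMUSG00000019960.8, chromosome 10, 99263231 to 99267489), had 79.8, 74.4 and 76.9 CPM with Activin A and 93.7, 89.5 and 98.01 CPM without. The groups did not overlap, but the change was small. It was 1.22-fold, from 77.1 ± 2.70 to 93.7 ± 4.27 CPM, with a log2 fold change of 0.28 (SE 0.06, edgeR adjusted p = 0.00169). With limma-trend on log2(TPM + 1) the fold was 0.29 and the adjusted p 0.0691. Dusp6 is shown beside Dusp5 because it held the ETS word more than once. The stretch is at chr10:99262981-99263230, + strand, with capitals marking CGGAA or its reverse complement.
Dusp6: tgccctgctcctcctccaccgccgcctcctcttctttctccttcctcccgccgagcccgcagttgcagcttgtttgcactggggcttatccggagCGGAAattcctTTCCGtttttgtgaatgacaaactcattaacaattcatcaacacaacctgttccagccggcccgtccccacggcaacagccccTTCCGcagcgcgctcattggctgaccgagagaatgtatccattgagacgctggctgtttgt

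Per length and over all its transcripts, Dusp6 was the most abundant member in both groups. TPM (a share of all transcripts that accounts for length, summed over the transcripts of a gene) was 38.4 ± 2.97 for Dusp6 with Activin A and 47.2 ± 1.69 without (SD, n = 3 each). Of the Dusp6 TPM, 56.0% ± 1.76 with and 52.3% ± 0.638 without Activin A lay on Dusp6-203, an 876-base processed transcript. The protein-coding Dusp6-201 was at 11.3 ± 0.768 and 13.6 ± 0.825 TPM, and Dusp6-204 at 1.75 ± 0.439 and 2.65 ± 0.283. The first place of Dusp6 therefore rests on its processed transcripts. With Activin A the protein-coding Etv5-201 was at 12.8 ± 1.04 TPM, and the protein-coding Etv5-203 held a further 35.5% ± 7.64 of the Etv5 TPM. Without it the protein-coding Dusp5-201, which held all of the Dusp5 TPM, was at 25.7 ± 1.26 TPM. Etv5 had more CPM than Dusp6 with Activin A, at 120.3 ± 4.12 against 77.1 ± 2.70. Without it Dusp6 had the most, at 93.7 ± 4.27. The summed TPM of the 3 phosphatase genes was 49.4 to 54.3 in the libraries with Activin A and 75.9 to 81.2 in those without. This sum, and the shares of it, count the processed transcripts of Dusp6, which raise the share of Dusp6. Dusp5 made up 18.4% ± 1.90 of that sum with Activin A and 32.9% ± 0.433 without, and Dusp6 went from 74.7% ± 2.08 to 60.6% ± 0.0746. The ranges of the sum and of the shares of Dusp5 and Dusp6 did not overlap between the groups, and no test was made of them. Dusp4 kept a share of 6.89% ± 0.399 and 6.49% ± 0.366.

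Among the Sprouty genes, Spry1 and Spry2 rose slightly. Spry1, an inhibitor of receptor tyrosine kinase signalling (ENSMUSG00000037211.12, chromosome 3, 37639947 to 37644598), had 25.0, 22.3 and 23.2 CPM with Activin A and 27.7, 28.8 and 27.8 CPM without. The rise was 1.19-fold (edgeR adjusted p = 0.0163), with means of 23.5 ± 1.36 CPM in the presence and 28.1 ± 0.623 CPM in the absence of Activin A. Every library without Activin A was above every library with it. The call was lost on leaving out replicate 2 of the Activin A group (adjusted p = 0.0671) or replicate 2 of the Activin-free group (adjusted p = 0.0735), and with DESeq2 (0.0702), limma-trend (0.173) and a transcript length offset (0.135), at log2 folds of 0.21 to 0.26.

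Spry2 (ENSMUSG00000022114.5, chromosome 14, 105891947 to 105896819) encodes another inhibitor of the family and had 28.4, 30.3 and 25.8 CPM with Activin A and 33.4, 32.6 and 32.97 CPM without. The rise was 1.16-fold (edgeR adjusted p = 0.0317), with means of 28.2 ± 2.24 CPM in the presence and 32.98 ± 0.384 CPM in the absence of Activin A. It is the least secure call among the members. It was lost on leaving out replicate 1 of the Activin A group (adjusted p = 0.0848) or any single library of the Activin-free group, at adjusted p-values of 0.104, 0.0795 and 0.0869 for replicates 1 to 3. It was also lost without both doubted libraries (0.131), with upper-quartile scaling (0.0653), DESeq2 (0.103), limma-trend (0.116) and the length offset (0.181). The log2 fold stayed between 0.15 and 0.27 in all 17 alternatives.

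Spry4 (ENSMUSG00000024427.7, chromosome 18, 38586247 to 38601415), also a Sprouty inhibitor, had 5.62, 5.63 and 5.99 CPM with Activin A and 5.03, 4.92 and 5.46 CPM without. In CPM the libraries without Activin A were lower, with no overlap, but on 60 to 92 reads per library the difference did not pass. In TPM the groups overlapped, at 0.767 to 0.917 with and 0.718 to 0.780 without Activin A. Its log2 fold change was -0.16 (SE 0.13, edgeR adjusted p = 0.41), with a 95% interval of -0.41 to 0.10. A rise as large as that of Dusp4 lies outside this interval. Spry4 was the lowest member per length, at 0.826 ± 0.0801 TPM with and 0.745 ± 0.0318 TPM without Activin A. The summed TPM of the 3 Sprouty genes was 16.4 to 17.2 with Activin A and 19.6 to 20.7 without, and Spry2 held 56.3% ± 2.72 and 56.6% ± 0.764 of it.

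The PEA3 group moved the other way. Etv5, a factor induced by FGF in many tissues (ENSMUSG00000013089.15, chromosome 16, 22381309 to 22439719), had 121, 124 and 116 CPM with Activin A and 42.02, 40.6 and 40.4 CPM without. The highest library without Activin A was well under the lowest with it. The mean fell 2.93-fold without Activin A, from 120.3 ± 4.12 CPM to 41.01 ± 0.888 CPM (SD, n = 3 each), with a log2 fold change of -1.55 (SE 0.06, edgeR adjusted p = 5.15e-11). Etv5 ranked 187 of the 2350 genes called lower, and 98.1% of all genes tested had a smaller change. The fold was smaller where transcript length entered, at -1.25 with the length offset and -1.13 with limma-trend on log2(TPM + 1). The call held in all 17 alternatives. Of the Etv5 TPM, 2.82% ± 4.83 with and 20.6% ± 11.5 without Activin A lay on a 433-base transcript with few reads. What that transcript adds to the smaller fold was not tested.

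RefSeq gives starts for Etv5 at 2 places, and both are shown as the largest fall among the members. The outer stretch lies at chr16:22439720-22439820, - strand, before the annotated first exon, and the inner one at chr16:22438369-22438618, - strand, inside the gene. None of the words searched was in either 250-base window, so there are no capitals.
Etv5 outer start: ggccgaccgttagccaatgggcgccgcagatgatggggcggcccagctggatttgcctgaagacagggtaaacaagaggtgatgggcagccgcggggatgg
Etv5 inner start: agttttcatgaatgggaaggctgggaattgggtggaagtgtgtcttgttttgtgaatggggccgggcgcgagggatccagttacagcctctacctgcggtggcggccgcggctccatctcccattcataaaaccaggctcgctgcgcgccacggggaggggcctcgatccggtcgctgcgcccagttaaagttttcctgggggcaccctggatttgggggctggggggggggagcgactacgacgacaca
The full outer window held 71.2% G and C and the inner 62.0%, against 64.0% for Dusp5 and 56.4% for Dusp6.

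Etv1 (ENSMUSG00000004151.17, chromosome 12, 38779380 to 38870484), a PEA3 factor, had 20.8, 17.6 and 21.7 CPM with Activin A and 13.9, 14.1 and 14.7 CPM without. It was 1.41-fold lower without Activin A, at 14.2 ± 0.440 against 20.1 ± 2.16 CPM (edgeR adjusted p = 0.00108). Etv4 (ENSMUSG00000017724.14, chromosome 11, 101769742 to 101785371), the third of the group, had 7.88, 7.02 and 6.09 CPM with Activin A and 3.97, 5.25 and 3.74 CPM without. It was 1.63-fold lower, at 4.32 ± 0.817 against 6.998 ± 0.900 CPM, on 50 to 129 reads per library (edgeR adjusted p = 0.00369). The groups of both genes were apart in CPM, whereas their TPM values overlapped, at 3.16 to 4.70 and 3.013 to 4.201 TPM for Etv1 and 2.37 to 2.68 and 1.75 to 3.27 TPM for Etv4. Both calls were lost with the length offset (log2 folds of -0.25 and -0.20, adjusted p = 0.412 and 0.644) and with limma-trend on TPM (-0.16 and -0.12, adjusted p = 0.569 and 0.707). The falls of Etv1 and Etv4 passed the test on reads and did not pass it on values per length. Short transcripts with few reads add to these TPM values. Etv4-207, an 882-base processed transcript, held 11.7% ± 14.1 of the Etv4 TPM with Activin A and 26.8% ± 6.65 without. Its reads numbered 1 to 12 per library. Etv1-209, of 670 bases, had 1.56 TPM on 10 reads in replicate 3 of the Activin A group. In replicate 3 of the Activin-free group it had 1.64 TPM on 15 reads. The sum of the protein-coding transcripts was not tested.

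The summed TPM of the PEA3 group was 26.7, 28.9 and 28.3 with Activin A and 15.03, 15.6 and 14.4 without. Etv5 held 76.8% ± 2.60 of the sum with Activin A and 61.9% ± 5.52 without. In order of TPM over all transcripts of a gene, Etv5 stood next after Dusp6 with Activin A, and below Dusp6, Dusp5 and Spry2 without. Dusp5 stood below Dusp6, Etv5 and Spry2 with Activin A, with a range that overlapped that of Spry2, and next after Dusp6 without. With Activin A the ranges of Phlda1, Etv1 and Dusp4 also ran into each other, and without it those of Etv5 and Spry1, Spry1 and Phlda1, and Etv1 and Etv4. Other neighbours in the order did not overlap.

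Phlda1 (ENSMUSG00000020205.8, chromosome 10, 111506286 to 111508645) had 8.62, 8.20 and 8.58 CPM with Activin A and 15.8, 14.6 and 15.7 CPM without. The groups were well apart. The rise was 1.81-fold (edgeR adjusted p = 7.61e-06), with means of 8.46 ± 0.233 CPM in the presence and 15.4 ± 0.694 CPM in the absence of Activin A on 86 to 223 reads per library. In TPM it went from 3.98 ± 0.553 to 7.77 ± 0.395. Of this TPM, 23.3% ± 5.23 with and 28.7% ± 5.23 without Activin A lay on Phlda1-202, of 362 bases. That transcript had 2 reads per library with Activin A and 4 to 7 without. Phlda1-201 alone went from 3.04 ± 0.235 to 5.53 ± 0.140 TPM. Phlda1 had the second largest rise among the members after Dusp5.

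**Figure D2:**
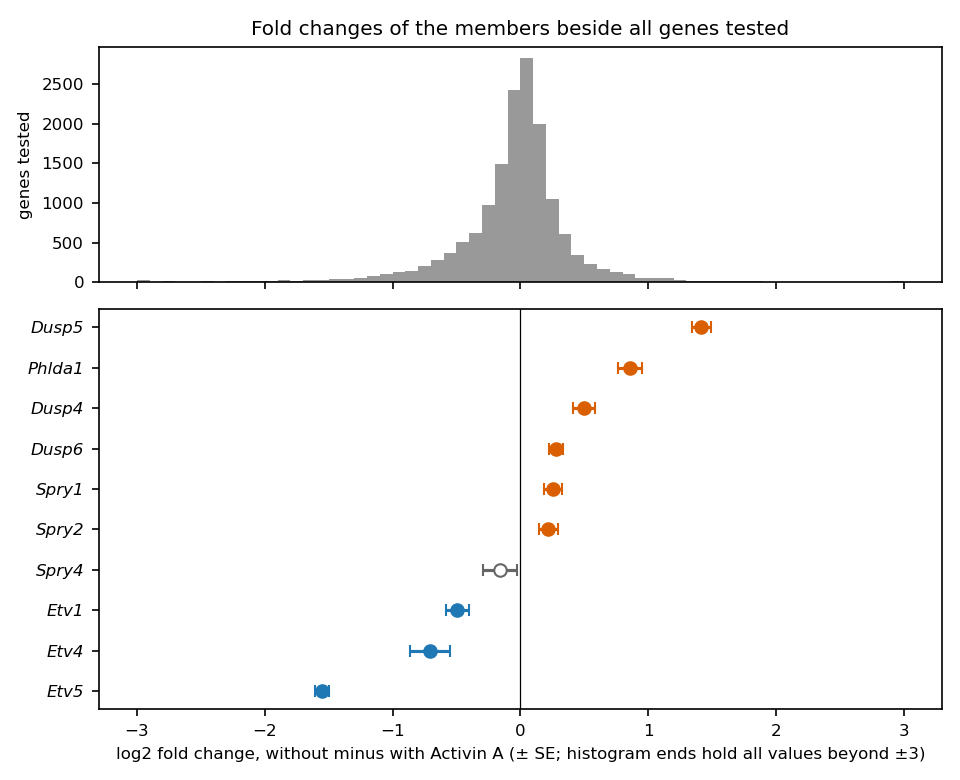
Upper panel, number of genes tested by log2 fold change (without minus with Activin A) in steps of 0.1. Lower panel, the 10 members with their standard error, orange for called higher, blue for called lower and an open circle for not called. Members run from -1.55 (Etv5) to 1.42 (Dusp5), while the median of all genes tested was 0.00.

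Over 17 alternatives of scaling, filter, test, unit and libraries, the calls of Dusp4, Dusp5, Etv5 and Phlda1 held each time. Their log2 folds ran from 0.42 to 0.55, 1.35 to 1.49, -1.603 to -1.13 and 0.82 to 0.93. No member changed direction in any of the 17. Spry4 was called in none of them, at -0.21 to -0.06.

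**Figure D3:**
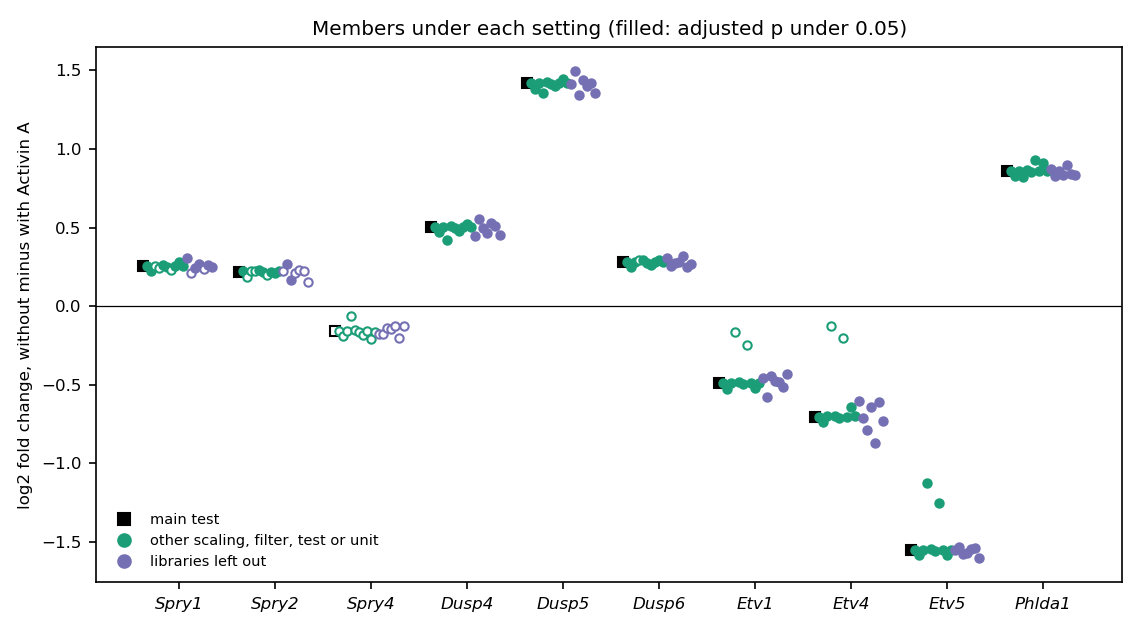
Log2 fold change of each member (without minus with Activin A) in the main test (black square) and in each alternative (circles, green for another scaling, filter, test or unit and violet for libraries left out). Filled symbols have an adjusted p under 0.05. Dusp5 and Etv5 lie far from 0 throughout, while Spry1 and Spry2 have several open symbols.

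The genes with a level profile most like that of Dusp5 or Etv5 were taken over the 6 libraries from 10894 protein-coding genes of at least 5 CPM, by the root mean square distance of log2 CPM after centring each gene. For Dusp5 they were Eras, which encodes a RAS-like GTPase (distance 0.0511, 9.60 ± 0.569 CPM with and 26.3 ± 0.124 CPM without Activin A), Synpo2l (0.0751) and Dusp27 (0.0845). For Etv5 they were Chst15, a sulfotransferase gene (distance 0.0441, 48.4 ± 0.950 and 15.7 ± 0.603 CPM), Sfn (0.0457) and Cdhr1 (0.05004).

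The members have 43 annotated transcripts in the files, of which 18 passed the filter. At this level 2 were called higher, Dusp5-201 (log2 fold 1.40, edgeR adjusted p = 0.00227) and Phlda1-201 (0.82, adjusted p = 0.0216), and 1 lower, Etv5-201 (-1.50, adjusted p = 0.0355). Of all 39997 transcripts tested 2.71% were called, 1.28% as higher and 1.44% as lower. With single libraries left out, 1 to 3 member transcripts were called in all, counted without regard to which. That total was 1 without replicate 1 or 2 of the Activin A group, or replicate 1 or 3 of the Activin-free group. It was 2 without replicate 3 of the Activin A group.

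Salmon divides reads between transcripts that share sequence, and some of these divisions swung between replicates. Spry1-203 was at 4.71, 0.31 and 2.54 TPM with Activin A and at 6.33, 4.06 and 3.72 TPM without, while Spry1-201 was at 1.97, 5.45 and 4.42 and at 0.86, 4.24 and 3.27 TPM. The 2 Spry1 transcripts thus traded places between libraries of one group, and no shift between them can be read. Dusp6 was steadier: Dusp6-203, annotated as a processed transcript, held 56.0% ± 1.76 of the TPM of the gene with Activin A and 52.3% ± 0.638 without. For Etv5, the short transcript Etv5-205, annotated for nonsense-mediated decay, held 2.82% ± 4.83 with Activin A and 20.6% ± 11.5 without. It is 433 bases long, so 1 read on it adds more TPM than 1 read on a longer transcript. Its reads numbered 0 to 8 per library with Activin A and 4 to 14 without. The share of Etv5-201 was 60.0% ± 7.72 and 50.6% ± 14.3.

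**Figure D4:**
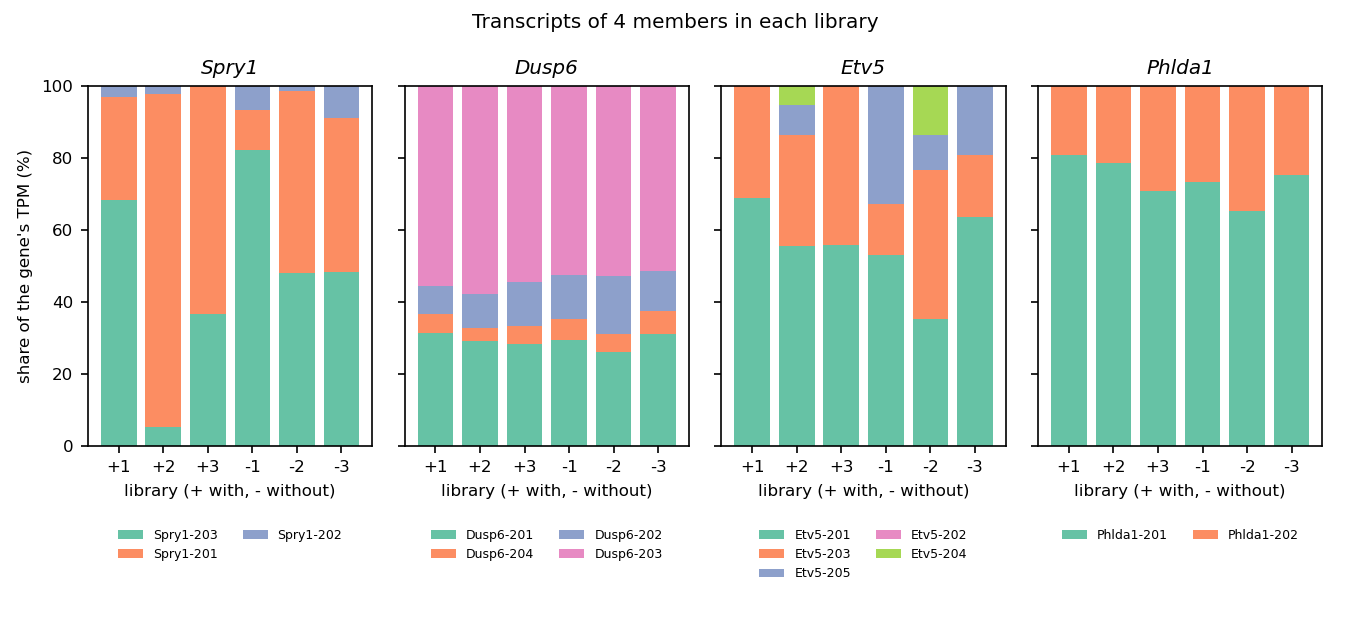
Share of the TPM of a gene held by each of its transcripts, in percent, in each library for Spry1, Dusp6, Etv5 and Phlda1 (+ with and - without Activin A, numbers are replicates). Spry1-203 runs from 5.27% to 68.4% among the libraries with Activin A, while Dusp6-203 stays near its mean of 56.0%.

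Some members share sequence with other annotated genes, which can divide their reads. Of the 31-base words of Etv5, 30.3% also occur in the processed pseudogene Gm4798, which had 0 to 2 reads per library. Phlda1 shares 30.8% with the antisense gene Gm28592 (0 to 1 reads) and Spry1 23.1% with the antisense Gm42922 (1 to 5 reads). Dusp5 shares 21.2% with the antisense AC137853.2, which had no matched transcript in the files. Etv1 shares 10.0%, chiefly with the pseudogene Gm5454 (0 reads in every library). Whether the counting used the strand is not given in the sources used here, so reads of Spry1, Dusp5 and Phlda1 and of their antisense partners cannot be told apart.

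The other genes of the pathway, taken from lists made by function, also moved in both directions. Of 95 found in the files 88 were tested, and 30 were higher, 18 lower and 40 not called (54.5% called, with 29.2% of all genes tested), at a median log2 fold of 0.08. In the list of Spred and receptor-level antagonists, not all of whose genes are antagonists, 3 of 11 rose and 4 fell (63.6% called). Flrt3 was among the rises and Spint1 among the falls. Lrig1, a negative regulator of receptor tyrosine kinases, rose from 35.2 ± 1.24 to 56.6 ± 3.40 CPM (edgeR adjusted p = 1.62e-06), and Spred2, an inhibitor of RAS to RAF signalling, fell from 83.4 ± 1.94 to 71.3 ± 1.69 CPM (adjusted p = 0.00482). The rises in this list numbered 5 on leaving out replicate 3 of the Activin A group. The falls numbered 2 on leaving out replicate 1 of the Activin A group or replicate 2 of the Activin-free group.

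Of 7 other MAP kinase phosphatase genes 2 rose, 0 fell and 5 were not called. The share called was 28.6%, near the 29.2% of all genes tested. Dusp9 rose 1.41-fold (edgeR adjusted p = 0.000702), with means of 34.1 ± 3.97 CPM in the presence and 48.5 ± 5.08 CPM in the absence of Activin A, and Dusp16 1.18-fold (adjusted p = 0.0423), a call lost on leaving out replicate 1 or 2 of the Activin A group, or replicate 1 or 3 of the Activin-free group. Of 13 other ETS factors tested 4 rose, 1 fell and 8 were not called (38.5% called). Ets1 rose 2.47-fold (edgeR adjusted p = 4.29e-10), with means of 50.5 ± 2.86 CPM in the presence and 124.7 ± 1.72 CPM in the absence of Activin A. With replicate 2 of the Activin-free group left out, 2 ETS factors rose. Etv6, the 1 that fell (log2 fold -0.18, adjusted p = 0.0416), had a positive fold with the length offset and with limma-trend.

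The cascade list ran from FGF receptor adaptors to ERK. It also held Rasa1 and Nf1, which restrain RAS, and Rps6ka1 and Rps6ka3, kinase genes downstream of ERK. Of its 24 genes 12 rose, 1 fell and 11 were not called. The share called was 54.2%, with 29.2% of all genes tested, and the median over the list was 0.13. Gab1, a docking protein, rose 1.39-fold (edgeR adjusted p = 0.000423), with means of 20.5 ± 0.833 CPM in the presence and 28.4 ± 2.39 CPM in the absence of Activin A. The log2 folds of the rises went up to 0.48, and their count depended on the setting. It was 7 on leaving out replicate 1 of the Activin A group, 6 on leaving out any 1 library of the Activin-free group, 6 with upper-quartile scaling, 2 with the length offset and 0 with limma-trend. On the list of other transcripts taken as induced by ERK, 6 of 22 tested rose and 6 fell (54.5% called), at a median of 0.05. Their induction by ERK in these cells was not tested. Epha4 rose 2.13-fold (edgeR adjusted p = 3.36e-08), with means of 24.7 ± 2.22 CPM in the presence and 52.6 ± 1.41 CPM in the absence of Activin A, and Epha2, also an ephrin receptor gene, fell 2.74-fold, from 20.96 ± 2.50 to 7.73 ± 0.821 CPM (adjusted p = 1.9e-07). The falls numbered 3 on leaving out replicate 1 of the Activin A group.

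At the top of the pathway, 3 of 11 FGF family and receptor genes tested rose and 6 fell, at a median of -0.54. Among the falls was Fgf13, which encodes an intracellular protein of the family and not a receptor ligand. The share called was 81.8%, with 29.2% of all genes tested. Fgfr2 rose 1.54-fold (edgeR adjusted p = 1.78e-07), with means of 111 ± 1.66 CPM in the presence and 172 ± 3.52 CPM in the absence of Activin A. Fgf4, a ligand made by pluripotent cells, fell 4.81-fold, from 11.4 ± 0.0260 to 2.36 ± 0.269 CPM (adjusted p = 1.15e-08).

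**Figure D5:**
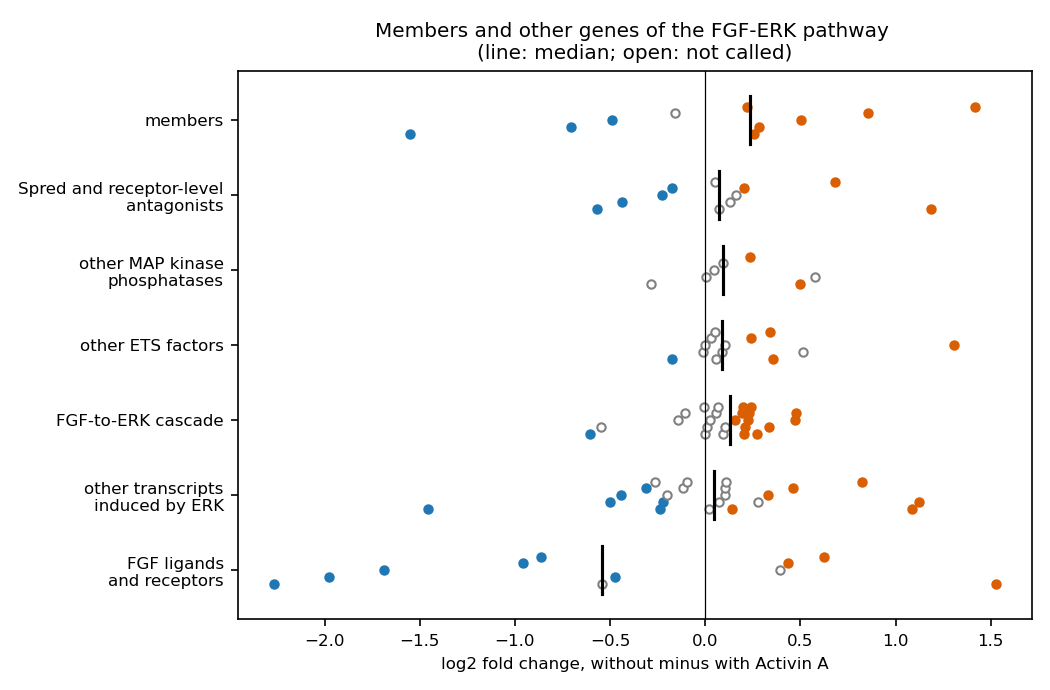
Log2 fold change (without minus with Activin A) of the members and of 6 lists of other FGF-ERK pathway genes. Points are genes, orange for called higher, blue for called lower and open for not called, and vertical lines are medians. Each list but the other MAP kinase phosphatases has called genes on both sides of 0, and the medians run from -0.54 for FGF ligands and receptors to 0.24 for the members.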

How the data were processed

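RNA-seq libraries of 6 mouse epiblast stem cell samples (3 with and 3 without Activin A) were analysed from 133618 transcripts per library. Per the file headers, the authors deposited Salmon output, with estimated counts (numbers of reads per transcript) and TPM values. The submitters' processing notes also name DESeq2 and edgeR, without versions, and no build or annotation is stated in the labels. Transcripts were joined to GENCODE M21, with versions ignored, for 133399 of them, and the 219 others held 0.140% ± 0.00657 (SD) of reads. Estimated counts were summed per gene and rounded. Genes passing filterByExpr (minimum count 10, minimum total 15) were tested with edgeR 4.0.16 (R 4.3.3), TMM scaling, robust quasi-likelihood and Benjamini-Hochberg adjustment over all 15448 genes, called at 0.05. Standard errors were derived from the fold and the F statistic, and the 95% interval is 1.96 of them to either side. Alternatives were upper-quartile and relative log scaling, DESeq2 1.42.0, limma 3.58.1 on log2(TPM + 1), other filters, a length offset, protein-coding genes alone, removal of GC and length trends (mgcv 1.9.3), a replicate block, and libraries left out. Leaving out both doubted libraries together was added after seeing the data. The test was checked on simulated data.

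The members and gene lists were chosen with earlier results of these data known. Genes named outside the 10 members are at most 2 called genes per list and direction with the smallest p, and the 3 genes most like Dusp5 and Etv5, and the motifs were chosen after the sequences had been read. Promoter letters are from RefSeq (GRCm38.p6), and windows of 6 of the 10 members were searched. Chromosome 18, where Spry4 lies, was left out of that search of the members. Spry3 had no match. No pair of libraries was a duplicate. The value of 1 gene of the FGF-to-ERK cascade list is not reported here.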

Additional observations from a re-analysis of the deposited data

How the results depend on the processing

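Log2 folds of the members gave 170 values over 17 alternatives each, of which 151 kept their side of the threshold and 19 lost a call, and none turned. The counts of called genes moved most in 2 alternatives. With a length offset alone 937 genes were higher and 1113 lower, and with limma-trend on log2(TPM + 1), which changes test, unit and scaling together, 778 and 781, against 2155 and 2350. The members then numbered 4 higher and 1 lower with the offset and 3 and 1 with limma, against 6 and 3, and the other pathway genes 14 higher and 10 lower, and 13 and 6, against 30 and 18. DESeq2 left 4 members higher. Etv6 turned to 0.28 with the offset and 0.29 with limma. Leaving out 1 library gave 1483 to 2808 genes higher and 1763 to 2881 lower, 4 to 6 members higher, 20 to 34 other pathway genes higher and 12 to 19 lower, and 1 to 3 transcripts of the members.

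Replicate numbers do not pair the samples: same-numbered libraries correlated at -0.02, -0.05 and -0.06 in their deviations from the group means. With a replicate block 2125 genes were higher and 2297 lower, with 6 members higher and 3 lower, but 0 of the 3 member transcripts were called. Low counts limit Spry4 and Etv4 most.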
